A study of Homo sapiens with 6 samples.

Results

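Fatty acid oxidation and ketogenesis were described through 45 genes, chosen by what their proteins do: uptake and activation of fatty acids, the carnitine shuttle, mitochondrial and peroxisomal beta-oxidation, ketone body metabolism, and some genes that regulate or respond to these pathways. All 45 were rows of the deposited table of 29908 Ensembl genes, and 38 of them averaged 0.5 FPKM or more across the 6 libraries and so were among the 14221 genes tested. FPKM is the number of reads of a gene scaled to its exon length and to the reads of its library. The other 7 genes (SLC27A5, CD36, ACSL5, ACADL, ACAD11, PDK4 and ANGPTL4) were too low to be tested and are given by their values only.

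Beta-oxidation shortens an activated fatty acid by repeated cycles of dehydrogenation, hydration, a further dehydrogenation and thiolysis, each of which releases acetyl-CoA. Mitochondria take up long-chain fatty acids through the carnitine shuttle and pass the electrons to the respiratory chain, whereas peroxisomes start on very long-chain and branched fatty acids and on bile acid precursors. The liver turns surplus acetyl-CoA into ketone bodies for other organs, and in hepatocytes many of these genes are targets of the fatty acid receptor PPAR-alpha and its coactivator PGC-1alpha.

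The study asked which transcripts differ in liver cancer cells with less DAGLA, the gene of diacylglycerol lipase alpha, which makes the endocannabinoid 2-arachidonoylglycerol. Hep3B, an established human hepatocellular carcinoma line, was infected at a multiplicity of infection of 5 with lentivirus carrying either a control construct (Hep3B-Con) or a short hairpin RNA against DAGLA (Hep3B-KD), and stably infected cells of both groups were selected with puromycin. RNA of 3 Hep3B-Con and 3 Hep3B-KD samples was sequenced. The knockdown rests on 1 hairpin in 1 cell line, and nothing in the design separates an effect of DAGLA from one of that hairpin or of the selection of the infected cells. The sample records name DMEM as the medium, and the methods name MEM-alpha.

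The series as a whole sets the scale. The deposited values returned whole reads, with 16644962 to 17572714 reads per library in Hep3B-Con and 15861039 to 16593115 in Hep3B-KD. DAGLA itself fell from 9.28 ± 0.228 to 4.62 ± 0.164 FPKM (mean ± SD, n = 3), or by a log2 fold change of -0.99 (limma adjusted p = 5.25e-06). Of all genes tested, 36.1% were higher and 23.8% lower in Hep3B-KD at an adjusted p under 0.05, and the median log2 fold change over all of them was 0.11 rather than 0. Of 10 markers of hepatocytes and hepatoma, 8 were higher and 2 lower (FGB, at -0.96, and HNF4A, at -0.35), and their summed FPKM was 4740 to 4849 in Hep3B-Con and 7028 to 7122 in Hep3B-KD. Of 11 markers of blood, endothelial and stromal cells in the table, PTPRC, VWF and CDH5 were at or near 0 in every library, and the summed level was 6.37 to 8.02 FPKM in Hep3B-Con and 6.76 to 7.55 in Hep3B-KD. Of the 4 of these markers tested, 0 were higher and 2 were lower, COL1A1 (0.745 to 0.271 FPKM, log2 fold change -1.20, limma adjusted p = 0.00720) and PDGFRB (2.67 to 2.11 FPKM, log2 fold change -0.32, limma adjusted p = 0.00447). LYZ, at 2.63 and 3.51 FPKM (log2 fold change 0.41, limma adjusted p = 0.0713), and CD14, at 1.08 and 0.862 FPKM (log2 fold change -0.27, limma adjusted p = 0.326), did not pass the test. The part of these markers in the results below was not tested. In bulk samples, fewer cells with a transcript and less of it per cell cannot be told apart. The series record calls the 3 samples of a group biological replicates without saying whether they were separate cultures, so p-values measure the spread between these samples.

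The targeted stretch of DAGLA and the strand that guides the knockdown are shown because part of that strand also matches some of the genes described here. The guide was assumed to be the exact reverse complement of the listed target. Its ends in the cells are not given in the sources used here, and other ends would give another seed. Capitals mark the seed of this assumed guide (its bases 2 to 8) and the stretch of the target that pairs with it. The target lies in the coding sequence of DAGLA in exon 18 of 20 of ENST00000257215 (GRCh38, chr11:61740504-61740522, plus strand).
Hairpin target: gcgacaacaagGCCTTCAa
Guide strand, its reverse complement: tTGAAGGCcttgttgtcgc

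In Hep3B-KD cells the genes of fatty acid oxidation moved in both directions. Long-chain activation (ACSL1, ACSL3), the carnitine step (CPT1A), long-chain dehydrogenation (ACADVL) and the mitochondrial hydratase and trifunctional protein (ECHS1, HADHA, HADHB) were lower. Medium and branched short-chain dehydrogenases (ACADM, ACADSB), 3 of the set's 4 enzymes of double-bond handling (although ECH1, outside the set, was lower), 5 of 7 peroxisomal genes, the ketone body enzyme BDH1 and the coactivator PPARGC1A were higher. Of the 38 genes tested, 17 (44.7%) were higher, beside 36.1% of all genes, and 11 (28.9%) were lower, beside 23.8% of all genes, at a limma adjusted p under 0.05. A change of at least 2-fold was reached by 5 higher genes (13.2%, beside 5.89% of all genes) and by 3 lower genes (7.89%, beside 2.94%). With the libraries centred on the median log ratio, or under quantile normalization, 3 genes of the set were higher by at least 2-fold and 3 lower. Over all genes the split at 2-fold was 838 higher and 418 lower, against 622 and 536 after centring and 477 and 587 under quantile normalization. The median log2 fold change of the 38 genes was 0.14, near that of all genes at 0.11. These shares are a description, and no test of the list was made.

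**Figure D1:**
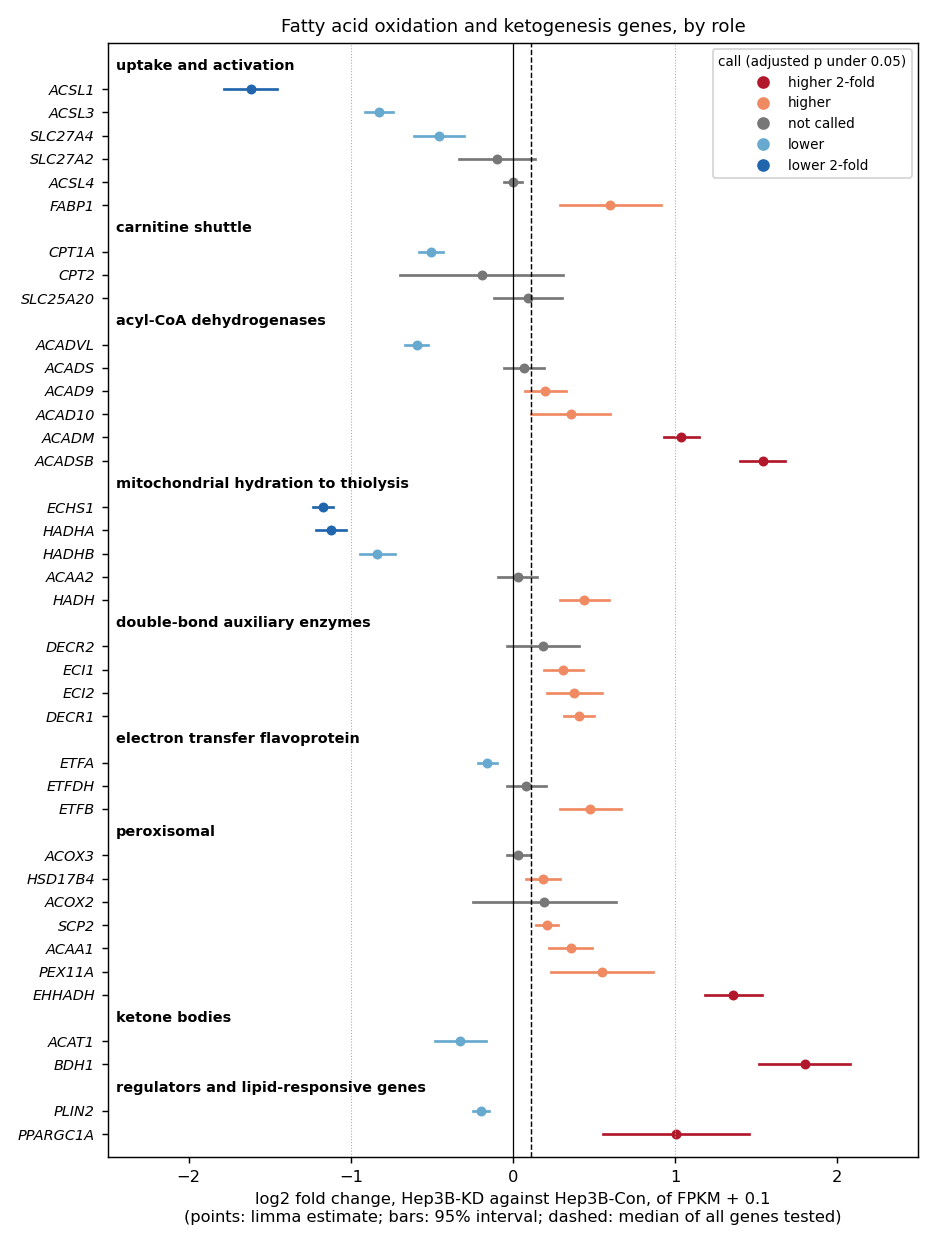
Log2 fold change of Hep3B-KD against Hep3B-Con on the log2(FPKM + 0.1) scale for the 38 genes tested, grouped by role, with points for the limma estimate and bars for its 95% interval; the dashed line is the median of all genes tested, 0.11. The double-bond and peroxisomal groups lie to the right of 0, and ACSL1, ECHS1, HADHA and HADHB lie far to the left.

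**Figure D2:**
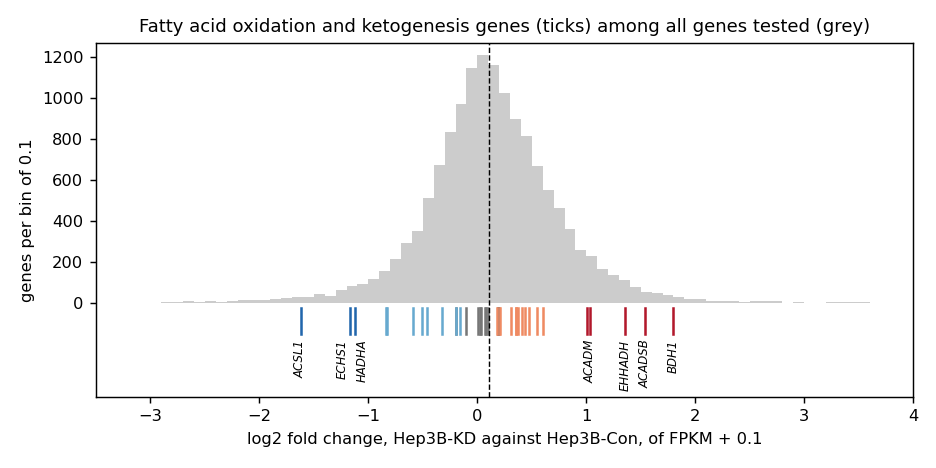
Distribution of the log2 fold changes of all 14221 genes tested (grey, genes per bin of 0.1), with a tick for each of the 38 fatty acid oxidation and ketogenesis genes coloured by its call. The ticks spread from -1.62 for ACSL1 to 1.80 for BDH1, and their median of 0.14 lies near the dashed median of all genes.

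Log2 fold changes compare Hep3B-KD with Hep3B-Con after 0.1 was added to each FPKM, so changes of genes near 0 come out too small. Levels are given as mean ± SD over the 3 libraries of a group. The groups did not overlap for 9517 of the 14221 genes tested and for 29 of the 38 tested genes of the set. Values that do not overlap are therefore the usual case in these data. FPKM uses the joined length of all annotated exons of a gene, so a gene with long rare exons has a low value, and levels of different genes are set side by side only on that per-length scale.

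Uptake and activation were lower in part. Of 6 genes tested in this role, 3 were lower, 1 was higher and 2 did not pass the test. Of all genes, 23.8% were lower and 36.1% higher. ACSL1 (ENSG00000151726, chr4:184755595-184826818, minus strand, GRCh38) encodes a long-chain acyl-CoA synthetase of liver, fat and muscle that couples fatty acids to coenzyme A. It had 5.43, 5.72 and 5.82 FPKM in the 3 Hep3B-Con libraries and 1.74, 1.91 and 1.69 in the 3 Hep3B-KD libraries. The groups lay far apart and the values within each lay close together. ACSL1 fell 3.07-fold, a log2 fold change of -1.62 (SE 0.0678, limma adjusted p = 4.19e-06), which was the 176th lowest of the 14221 genes.

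The synthetases of the same family did not move together. ACSL3, which serves lipid droplet formation, fell from 46.8 ± 2.19 to 26.3 ± 0.238 FPKM (mean ± SD, n = 3), or by a log2 fold change of -0.83 (limma adjusted p = 4.89e-06). ACSL4, which prefers arachidonic acid, had 75.8 ± 1.403 and 75.9 ± 1.56 FPKM, a log2 fold change of 0.00 with a 95% interval of -0.05 to 0.06 (limma adjusted p = 0.955). Relative to the median of all genes, when libraries were centred on the median log ratio, ACSL4 was at -0.10 and called lower, and under quantile normalization it was at 0.12 and called higher (limma adjusted p = 0.00789). ACSL5 was too low to be tested, at 0.311 ± 0.0418 and 0.181 ± 0.101 FPKM on 8 to 26 reads per library. ACSL4 was thus the most abundant of the 4 synthetases per length in both groups, and its ratio to ACSL1 was 13.8, 13.5 and 12.9 in Hep3B-Con and 44.7, 39.0 and 44.7 in Hep3B-KD.

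Among carriers, SLC27A4, a fatty acid transport protein with synthetase activity, fell from 12.5 ± 0.675 to 9.07 ± 0.643 FPKM (log2 fold change -0.46, limma adjusted p = 0.000848). FABP1, the fatty acid binding protein of liver cytosol, rose from 5.44 ± 1.01 to 8.21 ± 0.392 FPKM (log2 fold change 0.60, limma adjusted p = 0.00676). It moved in the direction of most of the hepatocyte markers above. SLC27A2, a transport protein for very long-chain fatty acids, had 6.09 ± 0.770 and 5.65 ± 0.351 FPKM, a log2 fold change of -0.10 (95% interval -0.34 to 0.14, limma adjusted p = 0.414). CD36, the fatty acid translocase of muscle, fat and macrophages, was low in both groups, at 0.346 ± 0.0213 and 0.310 ± 0.0499 FPKM. SLC27A5, the bile acid-CoA synthetase of mature hepatocytes, was lower still, at 0.162 ± 0.0328 and 0.205 ± 0.0461 FPKM.

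The carnitine shuttle was lower at its entry. CPT1A (ENSG00000110090, chr11:68754620-68844410, minus strand), the liver form of carnitine palmitoyltransferase 1 and the controlled step of mitochondrial long-chain oxidation, had 15.4, 15.7 and 16.0 FPKM in Hep3B-Con and 11.1, 10.8 and 11.2 in Hep3B-KD. The groups did not overlap. CPT1A fell 1.42-fold, a log2 fold change of -0.51 (SE 0.0316, limma adjusted p = 1.99e-05). SLC25A20, the carrier that exchanges acylcarnitine for carnitine across the inner membrane, had overlapping values of 10.9 ± 1.05 and 11.6 ± 0.934 FPKM (log2 fold change 0.09, limma adjusted p = 0.387), and its sign turned when the libraries were centred. CPT2, which returns the acyl group to coenzyme A in the matrix, was low, at 0.785 ± 0.0468 and 0.685 ± 0.171 FPKM, and its 95% interval of -0.70 to 0.31 does not exclude a change as large as that of CPT1A.

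The acyl-CoA dehydrogenases, which open each cycle and differ in the chain length they accept, went both ways. Of 6 tested, 4 were higher and 1 was lower, beside 36.1% higher and 23.8% lower of all genes, and 2 of the 4, ACAD9 and ACAD10, were not called higher after centring. ACADVL, the very long-chain enzyme of the inner membrane, fell from 60.6 ± 1.81 to 40.1 ± 0.877 FPKM (log2 fold change -0.59, limma adjusted p = 8.16e-06). ACADM (ENSG00000117054, chr1:75724347-75787575, plus strand), the medium-chain enzyme, had 5.98, 6.42 and 5.98 FPKM in Hep3B-Con and 13.1, 12.6 and 12.3 in Hep3B-KD. The control libraries were all low and the knockdown libraries all high. ACADM rose 2.05-fold, a log2 fold change of 1.04 (SE 0.0452, limma adjusted p = 4.83e-06), although it lay just under 2-fold, at 0.93, when the libraries were centred.

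ACADSB (ENSG00000196177, chr10:123008979-123058311, plus strand), the short/branched-chain enzyme that acts in isoleucine breakdown, had 3.002, 3.37 and 3.04 FPKM in Hep3B-Con and 9.61, 9.26 and 9.06 in Hep3B-KD. These groups were also far apart. It rose 2.91-fold, a log2 fold change of 1.54 (SE 0.0576, limma adjusted p = 2.72e-06). ACADS, the short-chain enzyme, had 8.57 ± 0.344 and 9.002 ± 0.445 FPKM (log2 fold change 0.07, limma adjusted p = 0.276), and its sign turned under centring. ACAD9, which also assembles respiratory complex I, was called higher at 0.20 (limma adjusted p = 0.0147) but not when the libraries were centred, where it was at 0.10 (limma adjusted p = 0.153).

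ACAD10 was called higher at 0.35 (limma adjusted p = 0.0218), and this call was lost without Hep3B-Con replicate 1 (limma adjusted p = 0.0519) and without Hep3B-KD replicate 3 (limma adjusted p = 0.0698). Without these 2 libraries in turn the log2 fold change was 0.36 and 0.32. The call was also lost under centring (0.25, limma adjusted p = 0.0737) and under quantile normalization (0.12, limma adjusted p = 0.337). ACADL, the long-chain enzyme, was too low to be tested, at 0.363 ± 0.114 and 0.246 ± 0.0915 FPKM. ACAD11 had 0 to 5 reads per library, and no fold is given. Within a library the ratio of ACADVL to ACADM was 10.4, 9.14 and 10.1 in Hep3B-Con and 3.02, 3.26 and 3.22 in Hep3B-KD. The long-chain transcript was thus the more abundant per length in every library, by a margin 3.13 times smaller in Hep3B-KD.

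The mitochondrial enzymes of hydration to thiolysis were the role with the largest fall in summed FPKM. Of 5 genes, 3 were lower, 1 was higher and 1 did not pass the test, beside 23.8% lower and 36.1% higher of all genes. Their summed FPKM was 151 to 157 in Hep3B-Con and 81.6 to 82.5 in Hep3B-KD. ECHS1 alone went from a mean of 91.3 to 40.5 FPKM, so the sum mostly follows that gene. ECHS1 (ENSG00000127884, chr10:133362480-133373689, minus strand), the short-chain enoyl-CoA hydratase of the matrix, had 90.6, 89.2 and 94.1 FPKM in Hep3B-Con and 41.1, 40.5 and 39.9 in Hep3B-KD. The 2 groups were well apart, with narrow spread. It fell 2.25-fold, a log2 fold change of -1.17 (SE 0.0259, limma adjusted p = 3.80e-07), and it was the most abundant of the set after PLIN2 in Hep3B-Con.

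HADHA (ENSG00000084754, chr2:26190635-26244726, minus strand) encodes the alpha subunit of the trifunctional protein, which carries the long-chain hydratase and hydroxyacyl-CoA dehydrogenase. It had 25.0, 27.0 and 25.6 FPKM in Hep3B-Con and 12.1, 11.7 and 11.7 in Hep3B-KD. The knockdown libraries were all below the controls. HADHA fell 2.17-fold, a log2 fold change of -1.12 (SE 0.0378, limma adjusted p = 1.85e-06). HADHB, the beta subunit with the long-chain thiolase, fell from 18.2 ± 0.0772 to 10.2 ± 0.579 FPKM (log2 fold change -0.84, limma adjusted p = 1.10e-05). The ratio of HADHA to HADHB was 1.37, 1.49 and 1.41 in Hep3B-Con and 1.19, 1.22 and 1.09 in Hep3B-KD, so both subunits fell and the alpha subunit fell further.

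The 2 subunit genes lie head to head, which is why most of the stretch between their starts is shown. In RefSeq (GRCh38.p14) HADHA starts at 26244632 on the minus strand of chromosome 2 and HADHB at 26244939 on the plus strand, with 306 bases between them. The sequence is that of chr2:26244689-26244938 on the plus strand, and capitals mark the 194 bases that lie within the promoter windows of both genes, each taken from upstream of the start to 50 bases after it.
HADHA and HADHB: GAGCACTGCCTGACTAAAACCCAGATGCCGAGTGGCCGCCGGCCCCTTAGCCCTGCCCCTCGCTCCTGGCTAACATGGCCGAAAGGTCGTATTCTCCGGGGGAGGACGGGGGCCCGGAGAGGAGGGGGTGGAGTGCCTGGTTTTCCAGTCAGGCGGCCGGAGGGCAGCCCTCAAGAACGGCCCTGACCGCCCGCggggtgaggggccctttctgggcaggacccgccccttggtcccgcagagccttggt

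In GENCODE 29 the bounds of the 2 genes overlap by 1557 bases on opposite strands, and the strand setting of the authors' counting was not given in the sources used here, so reads from the overlap cannot be told apart. The element TCAAGGTCA, searched on both strands as the site of estrogen-related receptors, which act with PGC-1alpha on oxidation genes, was in 0 of 57 promoter windows of the 38 genes of the set that had one in RefSeq, and in 0.353% of all 35116 windows. An element this rare is seldom found in so few windows, so its absence says little about the set. These 38 genes are not the 38 tested: CD36, ACADL and PDK4 are among them, and EHHADH, ETFDH and ACAA1 are not.

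The other enzymes of these steps did not follow the trifunctional protein. HADH, the medium- and short-chain hydroxyacyl-CoA dehydrogenase, rose from 3.91 ± 0.274 to 5.33 ± 0.164 FPKM (log2 fold change 0.44, limma adjusted p = 0.000987). ACAA2, the matrix thiolase, had 13.98 ± 0.791 and 14.2 ± 0.547 FPKM (log2 fold change 0.03, 95% interval -0.10 to 0.15, limma adjusted p = 0.666), and its sign turned under centring and without Hep3B-Con replicate 2 or Hep3B-KD replicate 2.

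Of the 4 enzymes of the set that deal with double bonds in unsaturated fatty acids, 3 were called higher and 0 lower. Of all genes, 36.1% were higher and 23.8% lower. ECH1, a dienoyl-CoA isomerase outside the set that was singled out after its values were seen, went the other way and fell from 11.05 ± 0.459 to 5.996 ± 0.216 FPKM (log2 fold change -0.87, limma adjusted p = 1.14e-05). DECR1, the mitochondrial dienoyl-CoA reductase, rose from 13.1 ± 0.532 to 17.4 ± 0.327 FPKM (log2 fold change 0.41, limma adjusted p = 0.000122). The enoyl-CoA isomerase ECI1 rose from 15.4 ± 0.981 to 19.1 ± 0.446 FPKM (log2 fold change 0.31, limma adjusted p = 0.00175). ECI2, an isomerase found in peroxisomes and mitochondria, rose from 2.14 ± 0.118 to 2.81 ± 0.0960 FPKM (log2 fold change 0.38, limma adjusted p = 0.00347), a call lost under quantile normalization (0.15, limma adjusted p = 0.105). DECR2, the peroxisomal reductase, had a log2 fold change of 0.19 (limma adjusted p = 0.124), and it overlaps NME4 on the same strand by 8542 bases, so its reads are uncertain.

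The electron transfer flavoprotein, which collects electrons from the acyl-CoA dehydrogenases, showed no common direction. ETFA, its alpha subunit, fell from 52.2 ± 0.829 to 46.7 ± 1.003 FPKM (log2 fold change -0.16, limma adjusted p = 0.00131), and lost this call under quantile normalization (-0.04, limma adjusted p = 0.231). ETFB, its beta subunit, rose from 1.41 ± 0.0464 to 2.01 ± 0.00683 FPKM (log2 fold change 0.48, limma adjusted p = 0.00192). ETFDH, which hands the electrons to ubiquinone, had 4.22, 3.97 and 4.12 FPKM in Hep3B-Con and 4.24, 4.31 and 4.49 in Hep3B-KD. The knockdown values were all above the control values, by a gap smaller than the spread within either group. Its log2 fold change of 0.08 (95% interval -0.04 to 0.20) did not pass the test (limma adjusted p = 0.204), and the sign turned under centring.

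**Figure D3:**
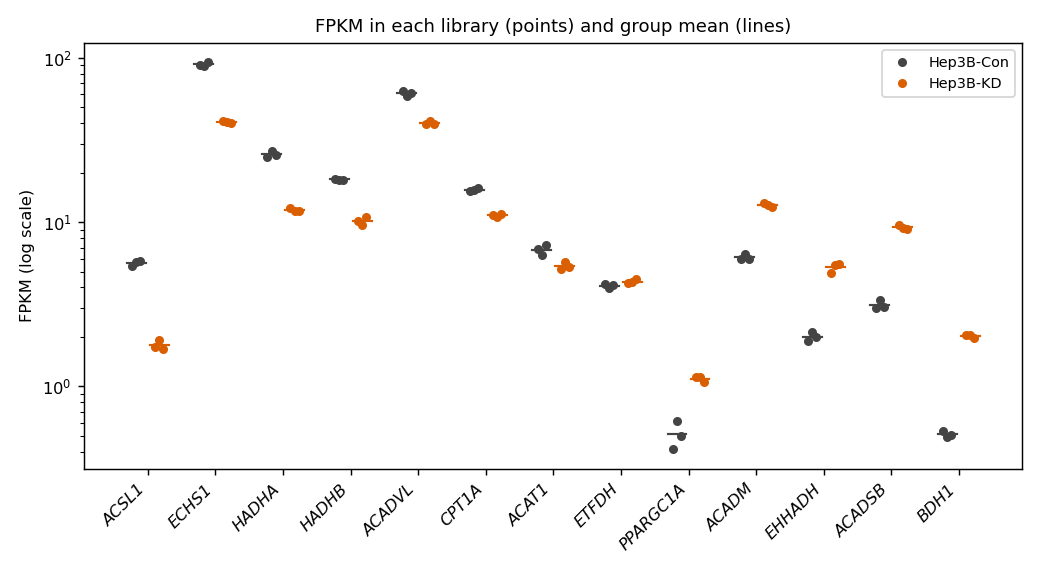
FPKM on a log axis in each of the 3 Hep3B-Con (grey) and 3 Hep3B-KD (orange) libraries for 13 genes of the set, with a line at each group mean. ACSL1, ECHS1, HADHA, HADHB, ACADVL, CPT1A and ACAT1 are lower in every Hep3B-KD library, PPARGC1A, ACADM, EHHADH, ACADSB and BDH1 are higher in every one, and the ETFDH values nearly touch.

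Peroxisomal oxidation was higher, with 5 of 7 genes called higher and 0 lower, beside 36.1% higher and 23.8% lower of all genes. The summed FPKM of the 7 was 59.3 to 61.3 in Hep3B-Con and 70.2 to 71.8 in Hep3B-KD. EHHADH (ENSG00000113790, chr3:185190624-185281990, minus strand), the peroxisomal bifunctional enzyme that hydrates and dehydrogenates, had 1.90, 2.13 and 1.99 FPKM in Hep3B-Con and 4.92, 5.48 and 5.53 in Hep3B-KD. The groups did not overlap. EHHADH rose 2.57-fold, a log2 fold change of 1.36 (SE 0.0730, limma adjusted p = 1.10e-05).

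The remaining peroxisomal enzymes changed less. PEX11A, a membrane protein of peroxisome division, rose from 1.99 ± 0.262 to 2.95 ± 0.384 FPKM (log2 fold change 0.55, limma adjusted p = 0.0104), a call lost under quantile normalization (0.33, limma adjusted p = 0.0822). The thiolase ACAA1 rose from 4.85 ± 0.211 to 6.23 ± 0.307 FPKM (log2 fold change 0.36, limma adjusted p = 0.00151). SCP2, which carries sterols and a thiolase for branched chains, rose from 15.5 ± 0.386 to 17.95 ± 0.0586 FPKM (log2 fold change 0.21, limma adjusted p = 0.000782). HSD17B4, the second bifunctional enzyme, was called higher at 0.18 (limma adjusted p = 0.0106) but not after centring, where it was at 0.08 (limma adjusted p = 0.163).

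The branched-chain oxidases were not called. ACOX2, which shortens bile acid precursors, had 0.786 ± 0.122 and 0.912 ± 0.125 FPKM (limma adjusted p = 0.398), with a log2 fold change of 0.19 that became -0.11 under quantile normalization. ACOX3 had 22.9 ± 0.520 and 23.5 ± 0.526 FPKM (log2 fold change 0.03, limma adjusted p = 0.382), which became -0.07 under centring.

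A comparison of HADHA with EHHADH sets the mitochondrial long-chain enzyme against a peroxisomal enzyme that catalyses the same pair of steps. Their ratio was 13.1, 12.7 and 12.8 in Hep3B-Con and 2.46, 2.13 and 2.11 in Hep3B-KD. HADHA was more abundant per length than EHHADH in every library, by a margin 5.76 times smaller in Hep3B-KD. HSD17B4, the other peroxisomal bifunctional enzyme, had 12.4 ± 0.387 FPKM in Hep3B-Con and 14.1 ± 0.648 in Hep3B-KD. In Hep3B-KD it was above HADHA, which had 11.8 ± 0.256 FPKM, so this ratio describes EHHADH only. The ratios were chosen after the values of the genes were seen and are given without a test.

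**Figure D4:**
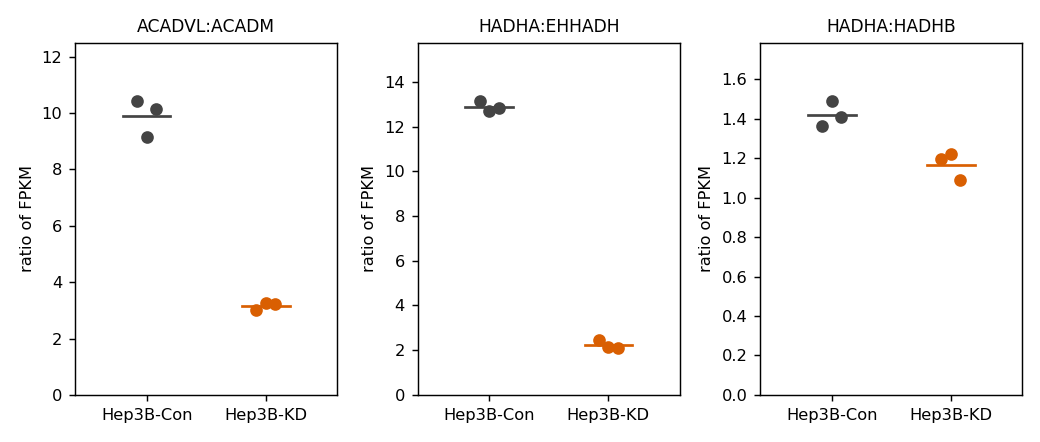
Ratio of the FPKM of 2 genes within each library, from an axis at 0, with 3 Hep3B-Con (grey) and 3 Hep3B-KD (orange) points per panel and a line at the group mean. The mean falls from 9.90 to 3.17 for ACADVL to ACADM, from 12.9 to 2.23 for HADHA to EHHADH, and from 1.42 to 1.17 for HADHA to HADHB.

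The 2 ketone body genes of the set moved apart. BDH1 (ENSG00000161267, chr3:197509783-197573323, minus strand), the mitochondrial enzyme that interconverts acetoacetate and beta-hydroxybutyrate, had 0.537, 0.492 and 0.508 FPKM in Hep3B-Con and 2.05, 2.05 and 1.98 in Hep3B-KD, on 77 to 86 and 297 to 300 reads. The knockdown libraries lay far above the controls. BDH1 rose 3.48-fold, a log2 fold change of 1.80 (SE 0.117, limma adjusted p = 2.38e-05), the 162nd highest of the 14221 genes.

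ACAT1 (ENSG00000075239, chr11:108121516-108147776, plus strand), the mitochondrial acetoacetyl-CoA thiolase, had 6.86, 6.30 and 7.24 FPKM in Hep3B-Con and 5.17, 5.69 and 5.35 in Hep3B-KD. The groups did not overlap. It fell 1.25-fold, a log2 fold change of -0.32 (SE 0.0652, limma adjusted p = 0.00475).

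Among regulators and lipid-responsive genes, PPARGC1A (ENSG00000109819, chr4:23755041-23904089, minus strand), which encodes PGC-1alpha, had 0.414, 0.619 and 0.503 FPKM in Hep3B-Con and 1.14, 1.15 and 1.06 in Hep3B-KD, on 79 to 117 and 192 to 200 reads. All knockdown values were above all control values. PPARGC1A rose 2.01-fold, a log2 fold change of 1.01 (SE 0.188, limma adjusted p = 0.00338). It lay below 2-fold without Hep3B-Con replicate 1 (0.89), Hep3B-KD replicate 1 (0.99) or Hep3B-KD replicate 2 (0.99), and at 0.90 when the libraries were centred.

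PLIN2, the coat protein of lipid droplets in hepatocytes, was the most abundant transcript of the set per length and fell from 112 ± 2.44 to 97.6 ± 0.785 FPKM (log2 fold change -0.20, limma adjusted p = 0.000215), a call lost under quantile normalization (-0.02, limma adjusted p = 0.380). PDK4, the pyruvate dehydrogenase kinase that spares glucose when fatty acids are burned, was listed below the limit for testing at 0.151, 0.280 and 0.186 FPKM in Hep3B-Con and 0.377, 0.648 and 0.440 in Hep3B-KD. ANGPTL4, a secreted inhibitor of lipoprotein lipase, was also below it, at 0.344, 0.394 and 0.387 FPKM in Hep3B-Con and 0.406, 0.477 and 0.607 in Hep3B-KD. For both genes the knockdown values lay above the control values, on 12 to 47 reads for PDK4 and 15 to 25 for ANGPTL4. For ANGPTL4 the nearest values, 0.394 and 0.406 FPKM, almost touched. Such a split was common, as it held for 9517 of the 14221 genes tested, so it gives no direction for these 2 genes.

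The receptors that act on these genes showed no common direction. Of 7 tested genes of lipid-sensing receptors and their partners, 3 were higher and 2 lower, beside 36.1% higher and 23.8% lower of all genes. PPARA, the receptor for fatty acids in liver, had 1.61 ± 0.137 and 1.42 ± 0.0566 FPKM (log2 fold change -0.16, limma adjusted p = 0.216). PPARD rose from 6.02 ± 0.319 to 8.28 ± 0.492 FPKM (log2 fold change 0.45, limma adjusted p = 0.000721), and PPARG fell from 13.8 ± 0.188 to 9.66 ± 0.337 FPKM (log2 fold change -0.51, limma adjusted p = 3.76e-05). RXRA, the partner of all 3, had a log2 fold change of -0.08 (limma adjusted p = 0.0877). NRIP1, a corepressor of nuclear receptors on oxidation genes, rose from 3.42 ± 0.271 to 8.07 ± 0.479 FPKM (log2 fold change 1.22, limma adjusted p = 1.73e-05).

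Other genes of fatty acid and ketone metabolism went both ways, with larger changes in peroxisomal transport. Of 36 listed, 34 were in the table and 27 were tested, with 14 (51.9%) higher, beside 36.1% of all genes, and 5 (18.5%) lower, beside 23.8% of all genes. ABCD3, which carries acyl-CoA into peroxisomes, rose from 10.2 ± 0.0492 to 27.9 ± 0.475 FPKM (log2 fold change 1.45, limma adjusted p = 1.82e-07), and CROT, the peroxisomal carnitine octanoyltransferase, rose from 2.87 ± 0.168 to 8.70 ± 0.192 FPKM (log2 fold change 1.57, limma adjusted p = 2.22e-06).

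ACACB, the acetyl-CoA carboxylase whose malonyl-CoA inhibits CPT1, rose from 0.455 ± 0.0479 to 1.24 ± 0.0679 FPKM (log2 fold change 1.28, limma adjusted p = 0.000576). LPIN1, a phosphatidate phosphatase that also acts with PGC-1alpha, rose from 0.573 ± 0.00668 to 1.46 ± 0.139 FPKM (log2 fold change 1.21, limma adjusted p = 0.000328). PECR, a peroxisomal enoyl-CoA reductase of chain elongation, was the 1 listed gene lower by at least 2-fold and fell from 12.6 ± 0.488 to 4.17 ± 0.201 FPKM (log2 fold change -1.57, limma adjusted p = 1.61e-06). Genes of peroxisome biogenesis lay near the background, with 5 of 14 tested higher, 3 lower and a median of 0.04 on the log2 scale. Of 9 tested genes of lipid droplets beside PLIN2, 3 rose and 3 fell, and the median was 0.15 on the log2 scale. Of all genes, 36.1% were higher and 23.8% lower.

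**Figure D5:**
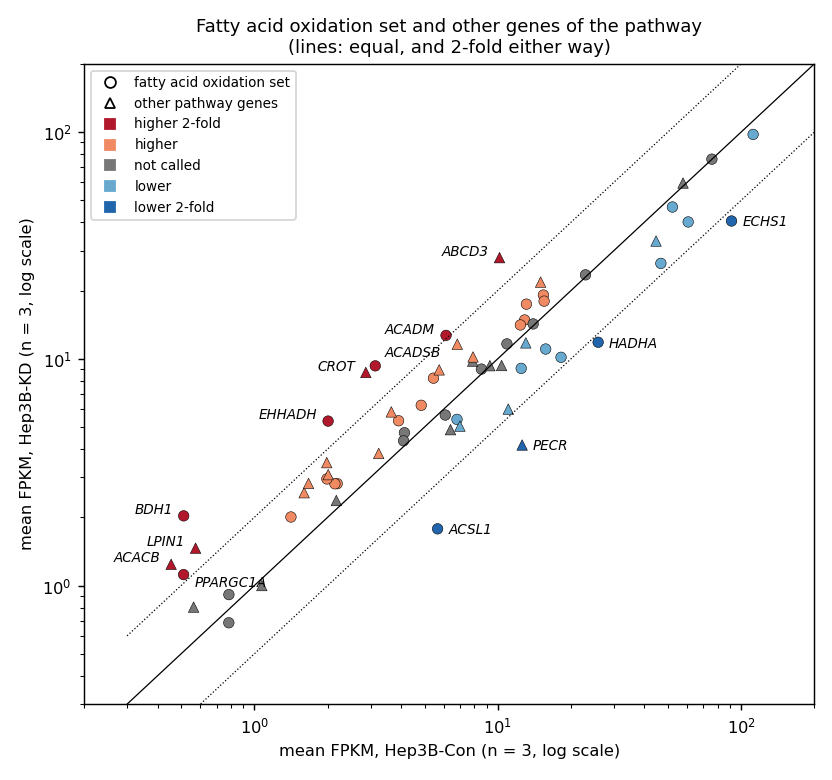
Mean FPKM in Hep3B-Con (x) and Hep3B-KD (y), n = 3 each, both on log axes, for the 38 tested genes of the set (circles) and the 27 other tested genes of the pathway (triangles), coloured by call, with lines for equal levels and for 2-fold either way. ABCD3 and CROT lie above the 2-fold line with ACADSB, EHHADH and BDH1, and PECR lies below it with ACSL1, ECHS1 and HADHA.

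The 3 genes that fell at least 2-fold each carry, in the 3' UTR, a stretch complementary to the seed of the assumed guide. Such a match of 7 bases is the kind of site through which a short RNA can lower transcripts other than its target. Over all genes tested with an annotated 3' UTR, 1627 of 11184 (14.5%) hold the match GCCTTCA in the longest one, and their median log2 fold change was -0.04, beside 0.11 for genes without it. In the set, 10 of 37 tested genes (27.0%) hold it, of which 4 were called lower (ACSL1, ECHS1, HADHA and CPT1A) and 6 higher (BDH1, PPARGC1A, DECR1, ACAA1, SCP2 and HSD17B4). For ACAA1 (ENST00000627515) and HSD17B4 (ENST00000646058) the match lies well inside the bounds of the gene. Whether the cells use these transcripts was not tested. The median log2 fold change in the set was 0.20 with the match and 0.08 without it.

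The sites are shown for the genes with the match that fell, and for BDH1 and PPARGC1A as genes with the match that rose at least 2-fold, with the match in capitals, on the strand of the gene and with the GRCh38 position of the match in the 3' UTR.
ACSL1, chr4:184757059-184757065: tcctgctgatgGCCTTCAtgttgttaatt
ECHS1, chr10:133362521-133362527: cgctgtctgctGCCTTCAtacagatgctg
HADHA, chr2:26191106-26191112: ctgattaaagtGCCTTCAgccaagaccat
CPT1A, chr11:68756396-68756402: cagataggagtGCCTTCAcgaaagcgtct
BDH1, chr3:197511713-197511719: gagtgacttggGCCTTCAcaaacagggtg
BDH1, chr3:197510568-197510574: gcttcagcgtgGCCTTCAttcccgcctcg
PPARGC1A, chr4:23792683-23792689: cgtgggccattGCCTTCAtgccgtggtaa

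Of the falls, ACSL3, HADHB, ACADVL, SLC27A4, ACAT1, PLIN2 and ETFA came without the match, and they ran from -0.84 for HADHB to -0.16 for ETFA. BDH1 holds 2 matches and was the gene of the set that rose most. The part of the seed match in these results was not tested.

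Some neighbours of the changed genes bear on how their reads were assigned. ACADM overlaps RABGGTB on the same strand by 1379 bases, and RABGGTB fell while ACADM rose, with a log2 fold change of -0.38 (limma adjusted p = 0.000208). ETFDH overlaps C4orf46 by 131 bases on the opposite strand, whose log2 fold change was -0.72 (limma adjusted p = 6.24e-05). It also overlaps PPID by 490 bases on the opposite strand, at -0.06 (limma adjusted p = 0.156). Other neighbours rose with the gene they overlap. DECR1 overlaps NBN by 1824 bases on the opposite strand (log2 fold change 0.35, limma adjusted p = 0.000303). ECI1 overlaps AC009065.8 by 1332 bases on the opposite strand (0.25, limma adjusted p = 0.0410). ETFB overlaps AC008750.5 by 3833 bases on the same strand (0.78, limma adjusted p = 0.0560, not called). How the reads of such overlaps were divided was not tested, so the levels of these genes carry that limit.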

How the data were processed

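The authors deposited 1 table of FPKM values, 29908 Ensembl genes in 3 Hep3B-Con and 3 Hep3B-KD columns, with 0 other columns of values. The submitters' processing notes name TopHat2 2.0.12, Bowtie2 2.0.6 and GRCh37. The gene identifiers were all found in GENCODE 29 (GRCh38), and with its joined exon lengths 100% of 138115 values above 0 came within 0.01 of whole reads; the counting tool and its strand setting are not given in the sources used here. Positions are those of GENCODE 29.

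Here log2(FPKM + 0.1) of genes averaging 0.5 FPKM or more was tested with limma 3.58.1 (eBayes with a trend) in R 4.3.3, over all 6 samples without a block, with Benjamini-Hochberg adjustment over 14221 genes. Intervals are 95% intervals of that fit. Reads and floors (3 reads) cover counting error only. All rows of 382 repeated symbols were kept. FPKM of every library was given for genes of the set changed at least 2-fold and for the best known enzyme of each role; of the other lists, genes past both thresholds could be named, with PPARA, PPARD, PPARG, RXRA and DAGLA. Some genes that this rule allowed are not reported here. The genes and lists were chosen with earlier results of these data known. Neighbouring genes were named after their values were seen. The longest annotated 3' UTR of at least 50 bases stood for a gene, and promoters came from RefSeq (GRCh38.p14). The fit was tested on simulated data with known log2 changes of 1 and 2 in size. At a dispersion (spread between libraries beyond counting error) of 0.01 it called 68.8% and 89.2% of them. At a dispersion of 0.1 it called 2.06% and 53.3%. Each simulation changed only 92 to 97 tested genes of each size, whereas 8521 genes were called in the data. The Benjamini-Hochberg limit was therefore stricter in the simulation. These shares do not give the share of real changes found here, and real changes can still be missed. Alternatives were other filters, pseudocounts of 1 and 0.01, rescaling, centring, quantile normalization, eBayes without the trend, voom on the recovered reads, a replicate block, and each library left out.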

Additional observations from a re-analysis of the deposited data

How the results depend on the processing

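Under the 10 alternatives and the 6 fits without 1 library, genes of the set called higher ranged from 14 to 17 and lower from 9 to 12, and those lower by at least 2-fold were 3 in every fit. Genes higher by at least 2-fold were 3 with a pseudocount of 1, with the libraries centred on the median log ratio and under quantile normalization, where ACADM and PPARGC1A lay under the limit; without 1 library they were 4 or 5. The median log2 fold change of the set was 0.17 after rescaling to TPM, 0.036 after centring, 0.074 under quantile normalization and 0.033 with voom on the recovered reads; the same settings set the median of all genes at 0.14, 0.01, 0.01 and 0.01. It was 0.18 with no filter, 0.094 with a mean of at least 1 FPKM and 0.093 with a pseudocount of 1, and 0.11 to 0.16 without 1 library. Other pathway genes called higher ranged from 12 to 16 and lower from 4 to 7.

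Genes near 0 changed sign, none of them called in the fit reported. After centring and with voom, ACAA2 was at -0.076 and -0.077, ACADS at -0.033 and -0.033, ACOX3 at -0.071 and -0.073, ACSL4 at -0.10 and -0.10, ETFDH at -0.022 and -0.021, and SLC25A20 at -0.0096 and -0.015. Under quantile normalization ACOX2 was at -0.11 and ETFDH at -0.063. Without 1 library ACSL4 ranged from -0.015 to 0.017, below 0 without Hep3B-Con replicate 1 or 3 or Hep3B-KD replicate 1, and ACAA2 from -0.018 to 0.060, below 0 without Hep3B-Con replicate 2 or Hep3B-KD replicate 2. Of the fits of single genes and of counts, 13 lost a call with the direction kept, in ACAD10, ACAD9, ECI2, ETFA, HSD17B4, PEX11A and PLIN2, and ACOX3 and ACSL4 gained one, as higher, under quantile normalization. ACSL4 passed as lower after centring and with voom.

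Samples with the same replicate number did not deviate together, with Pearson r across genes of -0.01, -0.07 and -0.00 for replicates 1, 2 and 3, so the numbers were not taken as pairs. With the replicate number as a block, 7919 genes were called against 8521 without it, 16 genes of the set were called higher and 11 lower, and ACAD10 lost its call (limma adjusted p = 0.0512). It changed no other call in the set.

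Depth limits ACOX2 and the 7 untested genes, whose reads are few. CPT2 is limited by the spread of its Hep3B-KD libraries, which had 100, 148 and 99 reads. A knockdown with 1 hairpin in 1 line, 3 biological replicates a group whose cultures are not described, and FPKM scaled to the library total limit the rest.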
